A study of Mus musculus with 30 samples.

Results

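Expression of Id1, Id2, Id3, Id4, Bmp4, Bmpr1a and Smad6 was followed in mouse embryonic stem cells. Doxycycline, which switched on a Nanog transgene in them, was withdrawn and then briefly returned. These 7 genes, of 19935 genes with a symbol of their own on the array, were taken by symbol. Each had exactly 1 transcript cluster (the probes that the array designers assigned to a transcript), and none shared a cluster with another gene. The values are log2 signals, so a difference of 1 is a doubling.

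The cells were 1 clone, NgR, an AINV15 Nanog rescue line made from embryonic stem cells that express rtTA, the protein through which doxycycline switches on the Nanog transgene. All groups came from this clone, were kept on primary mouse embryonic fibroblasts and had doxycycline at 1 ug/ml before withdrawal. RNA was measured on 30 arrays, 3 in each of 10 groups. One group was harvested at day 0 with doxycycline and 3 groups at days 1, 3 and 5 after its withdrawal. On each of these 3 days, further cells were grown on for 12 h, either still without doxycycline (the 12 h control) or with it (the 12 h pulse). No group stayed on doxycycline throughout, and none had a Nanog transgene that doxycycline did not control. Withdrawal and days in culture therefore cannot be told apart, nor can doxycycline and the Nanog transgene. Nothing in the labels tells separate cultures from repeat samples of one, so each p-value is against the spread among these arrays, which may be technical.

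Over the tested clusters, the array medians lay between 7.51 and 7.61 and the interquartile ranges between 2.39 and 2.94. The 4 widest arrays were 1 of the day 1, 1 of the day 3 and 2 of the day 5 controls, and the called results of the 7 genes that rest on them are also given without them. Nanog was at or above 10.70 on the 12 arrays with doxycycline and at or below 10.57 on the 18 without it. Its signal was lowered by withdrawal but stayed high. The mean was 11.03 at day 0, and 10.24, 10.51 and 9.85 at days 1, 3 and 5 of withdrawal. Between days 1 and 3 it rose by 0.27 (limma, adjusted p = 0.0135). At day 5 it was still at percentile 85.7 of the tested clusters. In RNA from a whole culture, fewer cells of a type and less RNA per cell cannot be told apart.

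BMPs are secreted ligands of the TGF-beta family. They bring type I and type II receptors together, the type I receptor phosphorylates Smad1, Smad5 and Smad9, and these enter the nucleus with Smad4. The Id genes are classic direct targets, and their proteins bind E proteins such as Tcf3 and keep them and their bHLH partners off DNA. In mouse embryonic stem cells, BMP4 acts together with LIF to sustain self-renewal, in part through the Id genes, while BMP signalling also favours trophectoderm and mesoderm fates in other settings. Bmp4 encodes a ligand, Bmpr1a a type I receptor, and Smad6 an inhibitory Smad that is itself induced by BMP and acts as a brake.

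Promoter sequences are shown for the pair with the largest rises over 5 days, Id2 and Bmpr1a, and for the pair with the largest falls, Bmp4 and Id3. Each is the stretch of 250 bases before the start in the RefSeq promoter table (GRCm38.p6), 5′ to 3′ on the strand of the gene: chr12:25096093-25096342 on the minus strand for Id2, chr14:34502547-34502796 minus for Bmpr1a, chr14:46390670-46390919 minus for Bmp4 and chr4:136143572-136143821 plus for Id3. Capitals mark every match, on either strand, to GGCGCC (a GC-rich element bound by BMP Smads), CAGAC or its reverse GTCTG (the core of a Smad box), CCAAT or its reverse ATTGG, and TATAAA or its reverse TTTATA.
Id2: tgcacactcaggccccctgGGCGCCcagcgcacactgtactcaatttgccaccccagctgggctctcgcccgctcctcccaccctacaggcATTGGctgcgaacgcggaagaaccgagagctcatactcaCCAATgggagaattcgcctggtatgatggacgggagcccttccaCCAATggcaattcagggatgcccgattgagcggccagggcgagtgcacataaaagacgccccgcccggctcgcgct
Bmpr1a: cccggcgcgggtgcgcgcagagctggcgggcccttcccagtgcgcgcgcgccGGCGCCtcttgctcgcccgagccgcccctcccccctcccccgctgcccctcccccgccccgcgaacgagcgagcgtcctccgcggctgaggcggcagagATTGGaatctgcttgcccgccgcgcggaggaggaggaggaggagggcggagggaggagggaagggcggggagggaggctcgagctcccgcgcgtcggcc
Bmp4: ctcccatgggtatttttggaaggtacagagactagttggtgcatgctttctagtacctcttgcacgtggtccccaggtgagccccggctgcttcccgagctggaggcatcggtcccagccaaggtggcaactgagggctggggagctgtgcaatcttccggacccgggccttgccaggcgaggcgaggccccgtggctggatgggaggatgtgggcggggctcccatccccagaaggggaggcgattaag
Id3: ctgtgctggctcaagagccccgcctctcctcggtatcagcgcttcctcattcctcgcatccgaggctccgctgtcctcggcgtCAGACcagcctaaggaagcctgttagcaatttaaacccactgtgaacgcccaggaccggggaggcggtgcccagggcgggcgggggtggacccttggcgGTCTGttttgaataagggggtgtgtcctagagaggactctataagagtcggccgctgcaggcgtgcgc

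The GGCGCC letters were found once in Id2 and once in Bmpr1a, and in 9.59% of the 32851 promoters of this length. CAGAC matched at 2 places in Id3 and in 42.2% of all promoters. CCAAT matched at 3 places in Id2 and 1 in Bmpr1a, against 33.8% of all promoters with a match. The Bmp4 window held none of the 4 motifs, and TATAAA, in 12.4% of all, was in none of the matched genes. Entries were matched for 6 of the 7 genes, all but Id1. In the other two, Id4 (chr13:48260866-48261115, plus) had 1 GGCGCC and 2 CCAAT matches, and Smad6 (chr9:64022060-64022309, minus) had none. All 6 windows were richer in G and C than the median promoter, from 62.8% in Id2 and Id3 to 78.8% in Bmpr1a against 52.4%. They held between 11 (Bmp4) and 36 (Bmpr1a) CpG pairs against a median of 6. A match is a description of the letters and not a site.

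Each of the 7 genes differed somewhere among the 10 groups at an adjusted p under 0.05, where 56.1% of all tested clusters did (limma's moderated F). The adjusted p ran from 1.56e-12 for Id2 to 0.00746 for Smad6. Group means of Id2 spanned 1.43, or 2.70-fold, those of Bmp4 0.96 (1.95-fold), Bmpr1a 0.89 (1.86-fold) and Id3 0.81 (1.76-fold). Smad6, Id1 and Id4 moved less, by 0.54, 0.51 and 0.45 between their highest and lowest groups. The SD within a group of 3 was usually near 0.1 for every gene (median over groups 0.078 to 0.10).

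**Figure D1:**
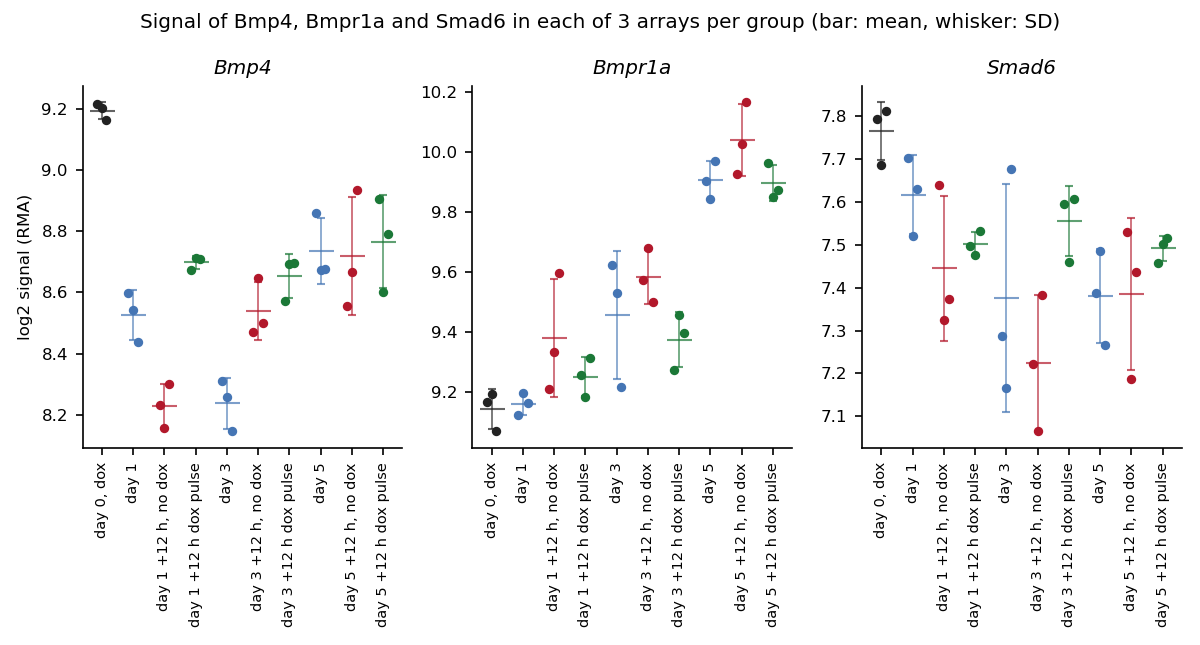
Signal of Bmp4, Bmpr1a and Smad6 (y axis, log2 RMA signal) on each array of the 10 groups (x axis), with the mean as a bar and the SD as a whisker over 3 arrays. Bmp4 was highest at day 0, at 9.16 to 9.21, and Bmpr1a was highest in the 3 groups of day 5, at 9.84 to 10.16.

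Bmp4, the ligand, fell within 1 day of withdrawal, reached its low by day 3 and partly recovered by day 5. Its 3 arrays read 9.21, 9.20 and 9.16 at day 0 and 8.60, 8.54 and 8.44 at day 1. They read 8.31, 8.26 and 8.15 at day 3 and 8.86, 8.67 and 8.67 at day 5. Every array after withdrawal was below every array of day 0, the pulsed ones included. Against day 0, Bmp4 fell by 0.67 ± 0.086 (SE) at day 1 (adjusted p = 7.57e-06), by 0.96 at day 3 (1.94-fold, adjusted p = 2.39e-09) and by 0.46 at day 5 (adjusted p = 7.91e-05).

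The steps between days were also called for Bmp4. Between days 1 and 3 it fell by 0.29 ± 0.086 (adjusted p = 0.0146), and between days 3 and 5 it rose by 0.50 (adjusted p = 0.00018), with no overlap between the arrays in either step. The first of these calls was lost without day 1 withdrawal replicate 1 (adjusted p = 0.0753) or without day 3 withdrawal replicate 3 (adjusted p = 0.0709).

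Bmpr1a, the type I receptor, went the other way and later. Its arrays read 9.17, 9.19 and 9.07 at day 0, 9.12, 9.20 and 9.16 at day 1, 9.62, 9.53 and 9.22 at day 3, and 9.90, 9.84 and 9.97 at day 5. The day 1 arrays overlapped those of day 0, day 3 lay just above and was spread out, and day 5 stood clear of all. The difference from day 0 was 0.02 at day 1 (95% confidence interval -0.17 to 0.21). Bmpr1a rose by 0.31 ± 0.093 at day 3 (adjusted p = 0.00979) and by 0.76 at day 5 (1.69-fold, adjusted p = 1.55e-07).

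Between days 3 and 5 alone, Bmpr1a rose by 0.45 ± 0.093 (adjusted p = 0.00135), and between days 1 and 3 by 0.30 (adjusted p = 0.0207). The day 3 call against day 0 was lost when each array was centred on its median (0.24, adjusted p = 0.0616). It was also lost without day 0 replicate 3 (adjusted p = 0.0513), day 3 withdrawal replicate 1 (adjusted p = 0.0884) or replicate 2 (adjusted p = 0.0514). The step from day 1 to day 3 was lost under 6 of 16 alternatives, with a highest adjusted p of 0.157 and a value of 0.21 without day 3 withdrawal replicate 1.

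Smad6, the inhibitory Smad, was highest at day 0, with arrays of 7.79, 7.69 and 7.81. Day 3 arrays read 7.29, 7.17 and 7.68 and day 5 arrays 7.39, 7.49 and 7.27, all below day 0, although 1 day 3 array was only just below. Smad6 fell by 0.39 ± 0.11 at day 3 (adjusted p = 0.00585) and by 0.38 at day 5 (adjusted p = 0.00474). The day 1 difference was -0.15 (adjusted p = 0.553). Without day 3 withdrawal replicate 2 the day 3 fall was 0.28 in size and lost its call (adjusted p = 0.0665).

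**Figure D2:**
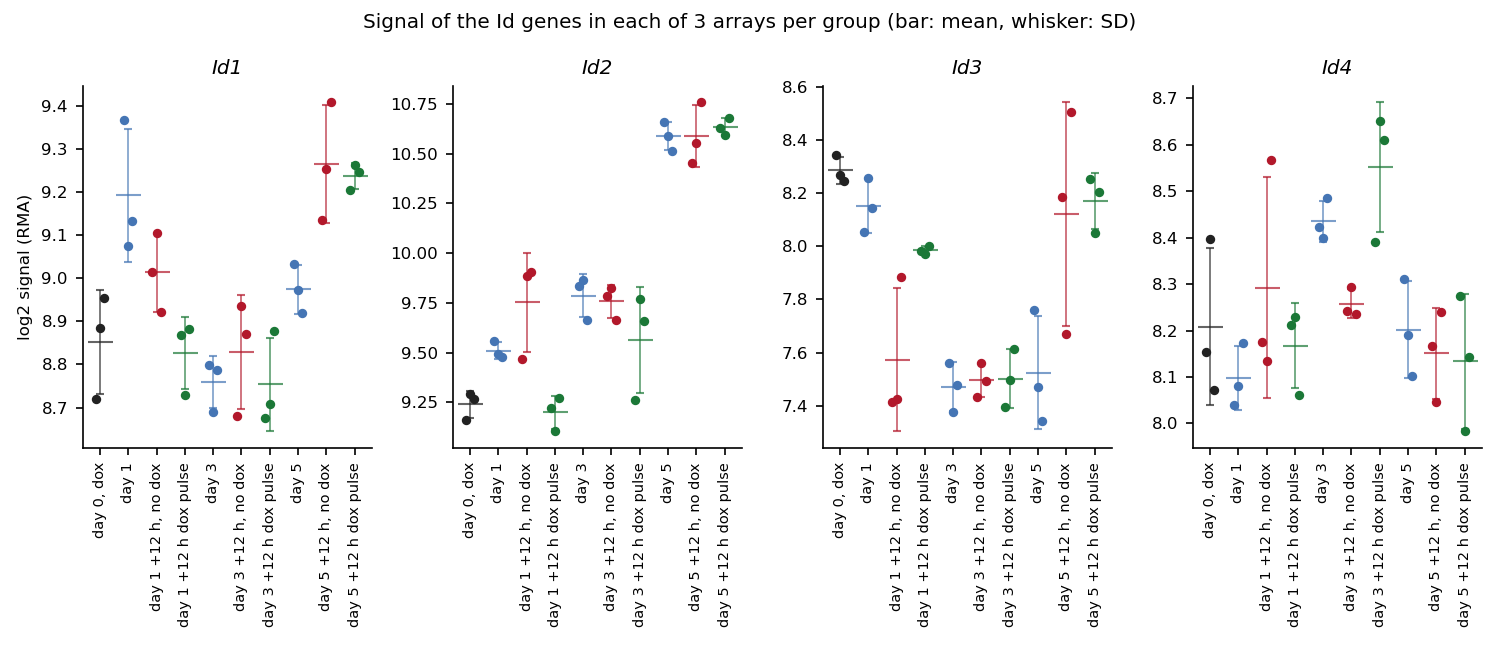
Signal of the 4 Id genes (y axis, log2 RMA signal) on each array of the 10 groups (x axis), with the mean as a bar and the SD as a whisker over 3 arrays. Id2 lay at 9.16 to 9.29 at day 0 and at 10.45 to 10.76 in the groups of day 5, while Id3 was highest at day 0, at 8.25 to 8.34.

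The 4 Id genes did not move together. Id2 was above day 0 at days 3 and 5, with its called step between those days, Id3 fell between day 1 and day 3, Id1 rose at day 1 and fell again by day 3, and Id4 was not called against day 0. Id2 arrays read 9.16, 9.29 and 9.27 at day 0, 9.56, 9.49 and 9.48 at day 1, 9.83, 9.86 and 9.66 at day 3, and 10.66, 10.59 and 10.51 at day 5. No 2 of these 4 groups overlapped.

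Id2 differed from day 0 by 0.27 ± 0.11 at day 1 (adjusted p = 0.167), rose by 0.55 at day 3 (adjusted p = 0.00026) and by 1.35 at day 5 (2.54-fold, adjusted p = 1.08e-10). Most of this came between day 3 and day 5, where Id2 rose by 0.80 ± 0.11 (adjusted p = 9.05e-06). The step from day 1 to day 3 was 0.28 and was not called (adjusted p = 0.0703). Some settings did call it, such as only the compared groups (adjusted p = 0.0288) and quantile normalization (adjusted p = 0.0268), and others did not.

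Id3 read 8.34, 8.27 and 8.25 at day 0 and 8.05, 8.26 and 8.15 at day 1, where 1 array still reached the day 0 range. At day 3 the arrays were 7.56, 7.38 and 7.48, and at day 5 they were 7.76, 7.47 and 7.34, below every array of day 0 and day 1. Id3 fell by 0.81 ± 0.14 at day 3 (1.76-fold, adjusted p = 4.12e-05) and by 0.76 at day 5 (adjusted p = 5.74e-05). The fall came in the step from day 1 to day 3, by 0.68 ± 0.14 (adjusted p = 0.00063). From day 3 to day 5 the difference was 0.05 (95% confidence interval -0.23 to 0.34).

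Id1 arrays read 8.72, 8.88 and 8.95 at day 0, 9.37, 9.08 and 9.13 at day 1, 8.80, 8.69 and 8.79 at day 3, and 9.03, 8.97 and 8.92 at day 5. Of these withdrawal days, only day 1 had all its arrays above day 0. The arrays of the day 5 control and the day 5 pulse also all lay above day 0, from 9.13 and 9.20 upward. Id1 rose by 0.34 ± 0.087 at day 1 (1.27-fold, adjusted p = 0.0153) and then fell by 0.43 between days 1 and 3 (adjusted p = 0.00048). At day 5 it differed from day 0 by 0.12 (adjusted p = 0.278). The day 1 rise lost its call without day 0 replicate 1 (0.27, adjusted p = 0.11), without day 1 withdrawal replicate 1 (0.25, adjusted p = 0.117) and in a fit of only the compared groups (adjusted p = 0.0666).

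Id4 had one called step. Its day 3 arrays, 8.42, 8.40 and 8.48, were above all of day 1, at 8.04, 8.08 and 8.17, and Id4 rose by 0.34 ± 0.10 in that step (adjusted p = 0.015). Against day 0 (8.15, 8.40 and 8.07), day 3 differed by 0.23 (adjusted p = 0.0856) and day 5 by -0.01 (95% confidence interval -0.21 to 0.20). The step call was lost without day 1 withdrawal replicate 1 (adjusted p = 0.0648) or day 3 withdrawal replicate 3 (adjusted p = 0.0504).

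**Figure D3:**
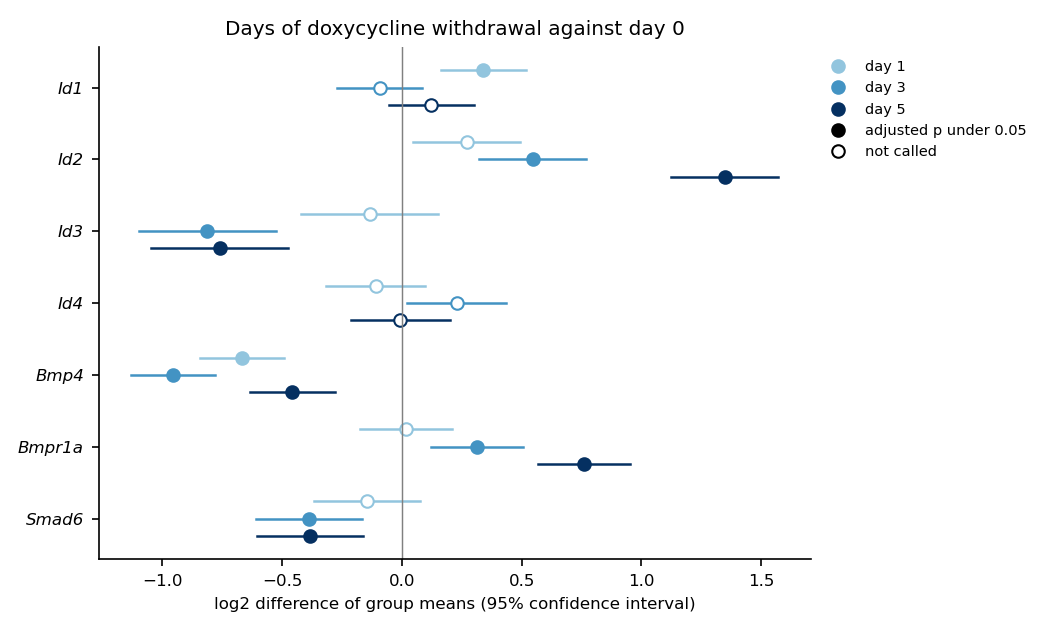
Difference of each withdrawal day from day 0 for the 7 genes (x axis, log2 difference of group means with 95% confidence interval), filled where the adjusted p was under 0.05. By day 5, Id2 and Bmpr1a lay to the right of 0 at 1.35 and 0.76, and Id3, Bmp4 and Smad6 to the left at -0.76, -0.46 and -0.38.

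Counted over the 7 genes, 1 rose and 1 fell at day 1, where 6.51% of all tested clusters were called, 3.49% higher and 3.02% lower. At day 3, 2 rose and 3 fell, against 33.8% of all clusters (19.6% higher, 14.3% lower). At day 5 again 2 rose and 3 fell, against 42.5% (23.8% higher, 18.8% lower). Arrays did not overlap with day 0 for 3, 6 and 5 of the 7 on these days, where 25.3%, 45.7% and 54.4% of all clusters did not. The 3 comparisons share the day 0 arrays.

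Between days 1 and 3, 2 of the 7 rose and 3 fell, against 22.9% of all clusters (13.2% higher, 9.77% lower). Between days 3 and 5, 3 rose and none fell, against 12.3% (7.59% higher, 4.75% lower). The third riser there was Bmp4, beside Id2 and Bmpr1a. Arrays did not overlap for 6 and 5 of the 7 in these steps, against 37.6% and 28.7% of all clusters.

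Over the same days marker genes of several cell types moved too. Their counts at day 5 stand beside 23.8% of all clusters higher and 18.8% lower. By day 5, 10 of 14 embryonic stem cell markers, Nanog among them, had fallen and 2 had risen. The mean level of the 14 went from between 11.01 and 11.07 at day 0 to between 10.39 and 10.47. Of 13 trophectoderm markers, 8 rose, and the mean went from 7.84 to 7.89 up to 8.95 to 9.02. The keratins Krt7, Krt18, Krt19 and Krt8 moved most, with Krt7 going from 7.72 to 11.11, and Gata3 and Plac1 came next. Little movement was seen in Elf5 (6.79 to 6.84), Tead4 (8.25 to 8.33), Hand1 (7.51 to 7.44) and Tfap2c (9.49 to 9.33). Of 14 markers of extraembryonic endoderm, 8 rose and 1 fell, with the mean going from 7.62 to 7.66 up to 8.11 to 8.16. Srgn (7.56 to 9.52) and Dab2 (7.28 to 8.98) moved most. Sox17 (7.03 to 6.86), Sox7 (6.94 to 6.71), Foxa2 (7.84 to 7.71), Amn (7.70 to 7.50) and Lama1 (8.94 to 8.63) did not go up.

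Of 19 measured fibroblast markers, listed because of the feeder cells, 9 rose and 1 fell by day 5, with the mean going from 7.20 to 7.29 up to 7.51 to 7.59. The list was mixed: Acta2 went from 10.64 to 11.35 and Thbs1 from 8.59 to 9.58. Against this, Dcn (6.17 to 6.15), Lum (4.86 to 4.72) and S100a4 (6.77 to 6.71) did not go up, and Thy1 went from 7.74 to 7.26. Which cells these signals came from was not tested. Of 9 measured neuroectoderm markers, 6 fell and none rose, and of 10 primitive streak and mesoderm markers, none was called in either direction. The part of these cell types in the changes of the 7 genes was not tested.

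**Figure D4:**
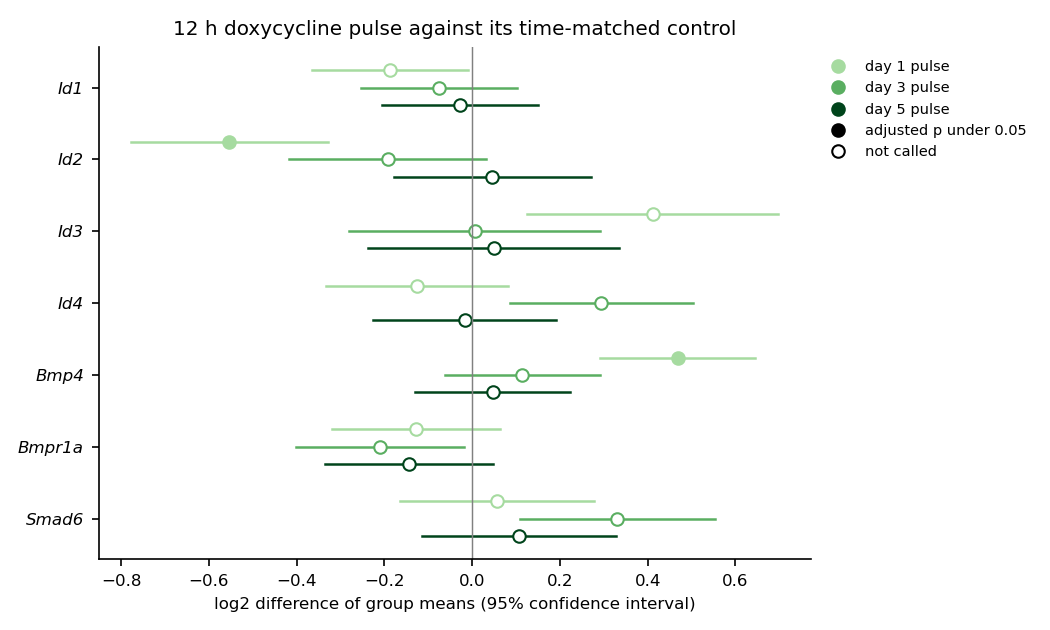
Difference between the 12 h pulse and the time-matched 12 h control for the 7 genes on each day (x axis, log2 difference of group means with 95% confidence interval), filled where the adjusted p was under 0.05. Bmp4 at 0.47 and Id2 at -0.55, both at day 1, were the called differences.

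A 12 h return of doxycycline moved Bmp4 and Id2 when given at day 1. Bmp4 arrays read 8.23, 8.16 and 8.30 in the control and 8.67, 8.71 and 8.71 after the pulse, without overlap. Bmp4 was higher after the pulse by 0.47 ± 0.086 (1.38-fold, adjusted p = 0.00221), and by 0.50 without the 4 widest arrays (adjusted p = 0.000774). The pulsed arrays were still below the day 0 arrays, which began at 9.16.

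Id2 arrays read 9.47, 9.89 and 9.90 in the day 1 control and 9.22, 9.11 and 9.27 after the pulse, again without overlap. Id2 was lower after the pulse by 0.55 on the log2 scale (1.47-fold, SE 0.11, adjusted p = 0.00436). The pulsed arrays lay in or next to the day 0 range of 9.16 to 9.29. Without the 4 widest arrays it was lower by 0.48 (adjusted p = 0.017). In a fit of only the compared groups the value was the same and the call was lost (adjusted p = 0.087).

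Id3 showed a difference at day 1 that was not called. Its control arrays were 7.41, 7.43 and 7.89 and its pulsed arrays 7.98, 7.97 and 8.002, a difference of 0.41 ± 0.14 (adjusted p = 0.107). Without control replicate 3, 1 of the 4 widest arrays, the difference was 0.57 and was called (adjusted p = 0.0248), and without all 4 widest arrays it was again 0.57 (adjusted p = 0.00111). Id1 was -0.19 from its control at day 1 (adjusted p = 0.277). For Id4, Bmpr1a and Smad6 the day 1 differences were -0.13, -0.13 and 0.06, with arrays that overlapped.

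At day 1, then, 1 of the 7 genes was higher and 1 lower after the pulse, where 3.75% of all clusters were called, 0.547% higher and 3.2% lower. The arrays of 4 of the 7 did not overlap, against 19.7% of all clusters. Beside this, Krt7 was the 1 trophectoderm marker of 13 called, and it was lower. The mean of that list was 8.03 to 8.06 in the control and 7.90 to 7.99 after the pulse. Fibroblast markers had a mean of 7.30 to 7.41 in the control and 7.33 to 7.39 after the pulse, with Mmp2 lower as the 1 call of 19. Of 9 neuroectoderm markers 2 were higher, and their mean was 7.32 to 7.41 in the control and 7.49 to 7.57 after the pulse, without overlap. Of 14 embryonic stem cell markers 2 were higher, with Nanog itself (higher by 0.79) among them, and 1 was lower. The mean of that list, Nanog included, was 10.95 to 11.02 in the control and 11.02 to 11.05 after the pulse. The part of these markers in the pulse differences was not tested.

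The day 3 pulse gave no call among the 7 genes by limma, and 3 had an unadjusted p under 0.05, as 14.6% of all clusters did. Only 0.0385% of all clusters were called there. Arrays did not overlap for 3 of the 7, against 24.5% of all clusters: Id4 (0.29, adjusted p = 0.208, or 0.35 and 0.00643 with array weights), Bmpr1a (-0.21, adjusted p = 0.299) and Smad6 (0.33, adjusted p = 0.184). Id2 and Bmp4 differed by -0.19 (95% confidence interval -0.42 to 0.03) and 0.11 (-0.06 to 0.29).

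At day 5 none of the 7 genes was called, and none had an unadjusted p under 0.05, where 12.2% of all clusters were called and 32.7% had such a p. The share called depended on the setting and was 0% in a fit of only the compared groups, which has fewer arrays. It was 2.57% with array interquartile range as a covariate, a fit that keeps every array. Of the 4 widest arrays 2 are day 5 controls. Leaving them out keeps 1 control array, so it cannot show what the share rests on. Arrays overlapped for all 7, while 21% of all clusters had none in common. The differences ran from -0.14 for Bmpr1a to 0.11 for Smad6. Id2 read 10.63, 10.59 and 10.68 after the pulse and 10.45, 10.55 and 10.76 in the control, a difference of 0.05 (95% confidence interval -0.18 to 0.27). Bmp4 read 8.90, 8.60 and 8.79 after the pulse and 8.56, 8.67 and 8.93 in the control, also a difference of 0.05 (-0.13 to 0.22).

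Whether the pulse effect itself differed between days was tested for each gene, and none of the 7 was called. The Id2 effect at day 5 exceeded that at day 1 by 0.60 ± 0.15 (95% confidence interval 0.28 to 0.92, adjusted p = 0.115). For Bmp4 the same difference was -0.42 ± 0.12 (-0.67 to -0.17, adjusted p = 0.161). These tests called 0.111% of all clusters for day 5 against day 1, 0.00855% for day 3 against day 1 and 0.936% for day 5 against day 3. At an unadjusted p under 0.05 the 3 differences, in this order, gave 2, 4 and 1 of the 7 genes, against 12.6%, 6.59% and 16.2% of all clusters. With the interquartile range of each array as a covariate the Id2 difference was 0.67 and was called (adjusted p = 0.0115).

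Averaged over the 3 days, Bmp4 was higher after the pulse by 0.21 ± 0.050 (adjusted p = 0.00573), and it was called in 28 of 28 alternatives. It was 0.29 without the 4 widest arrays, a fit that keeps 1 day 5 control array. Id2 was lower by 0.23 on the log2 scale (adjusted p = 0.0128) and Bmpr1a by 0.16 (adjusted p = 0.0365), so that 3 of the 7 genes were called where 20.8% of all clusters were (6.8% higher, 14% lower). With array interquartile range as a covariate 3.64% of all clusters were called. In that fit the Id2 average was -0.12 (adjusted p = 0.313) and that of Bmpr1a -0.04 (adjusted p = 0.712). Without the 4 widest arrays, with 1 day 5 control array kept, they were -0.15 and -0.07. Under quantile normalization both calls were lost (-0.16, adjusted p = 0.0531 for Id2 and -0.07, adjusted p = 0.23 for Bmpr1a). In all, the Id2 average kept its call in 25 of 28 alternatives and that of Bmpr1a in 14 of 28. Of these 28, 18 leave out 1 array. Smad6 averaged 0.17 (adjusted p = 0.0586), Id3 0.16, Id4 0.05 and Id1 -0.10.

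The controls themselves went on changing over their 12 h without doxycycline. From the day 1 withdrawal group to the day 1 control, Id3 fell by 0.58 ± 0.14 (adjusted p = 0.0134) and Bmp4 fell by 0.30 ± 0.086 (adjusted p = 0.0373). For both, the arrays of the 2 groups did not overlap. Without the 4 widest arrays the differences were -0.73 and -0.33 (adjusted p = 0.000157 and 0.0137). Over the same 12 h, 4 of 13 trophectoderm markers rose, from a mean of 7.83 to 7.86 up to 8.03 to 8.06. Of 9 neuroectoderm markers 1 fell, with the mean going from between 7.44 and 7.58 to between 7.32 and 7.41. The part of these markers was not tested. These 2 of 7 calls, both lower, compare with 6.25% of all clusters, 1.23% lower. Arrays did not overlap for 3 of the 7, Bmpr1a being the third, against 21.8% of all clusters. Both calls were lost in a fit of only the compared groups (adjusted p = 0.0685 and 0.124). The Id3 call was also lost without day 1 withdrawal replicate 2 or control replicates 1 or 2, and the Bmp4 call without withdrawal replicates 1 or 2 or control replicates 1 or 2, with highest adjusted p of 0.0831 and 0.167 in these.

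Over the 12 h after day 3, none of the 7 was called (1.69% of all clusters were) and 1, Bmp4, had an unadjusted p under 0.05, as 12% of all clusters did. Arrays did not overlap for Bmp4 and Id4, 2 of the 7 against 18.2% of all clusters. Those of Bmp4 were 8.31, 8.26 and 8.15 before and 8.47, 8.65 and 8.50 after it, a difference of 0.30 (adjusted p = 0.0745). Over the 12 h after day 5, Id3 rose by 0.60 ± 0.14 (adjusted p = 0.0165), the 1 call of 7 where 3.31% of all clusters were called and 2.32% were called higher. Without the 4 widest arrays the Id3 difference was 0.66, but it then rests on 1 control array. Arrays did not overlap for 1 of the 7, Id1 (0.29, adjusted p = 0.061), against 16.1% of all clusters. The Id3 control arrays were far apart, at 8.18, 7.67 and 8.50, and overlapped the withdrawal arrays.

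The day 5 pulse arrays of Id3 were closer together, at 8.25, 8.05 and 8.20, and all lay above the day 5 withdrawal arrays, which ended at 7.76. The Id3 call of the day 5 control was lost without control replicate 3 (0.40, adjusted p = 0.194), without withdrawal replicate 2 (adjusted p = 0.0796) or replicate 3 (adjusted p = 0.113), and in a fit of only the compared groups (adjusted p = 0.269). Over the same 12 h, 4 of 19 fibroblast markers fell, from a mean of 7.51 to 7.59 to one of 7.34 to 7.43, and 6 of 13 trophectoderm markers rose, from 8.95 to 9.02 up to 9.32 to 9.50. Of all clusters, 3.31% were called in either direction and 2.32% were higher. Their part was not tested.

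Ordered from the highest to the lowest group mean, most neighbours could not be separated. For Id2 the order ran from the day 5 pulse (10.63), day 5 control (10.59) and day 5 withdrawal (10.59) through the groups of day 3 and the day 1 control to day 1 withdrawal (9.51), day 0 (9.24) and the day 1 pulse (9.20). Only day 5 from day 3 withdrawal, and day 1 withdrawal from day 0, did not overlap as neighbours. Bmpr1a had 1 gap, between the day 5 pulse (9.90) and the day 3 control (9.59), with day 5 above it and all else below.

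In the order of Bmp4, day 0 (9.19) stood apart from the day 5 pulse (8.77), and day 1 withdrawal (8.53) from day 3 withdrawal (8.24), with the day 1 control lowest (8.23). The one gap for Id3 lay between the day 1 pulse (7.99) and the day 1 control (7.57). Above that gap were day 0 (8.29), the day 5 pulse (8.17), day 1 withdrawal (8.15) and the day 5 control (8.12), and below it the groups of day 3 and day 5 withdrawal. For Id1, Id4 and Smad6 every neighbour in the order overlapped. Id1 was highest in the day 5 control (9.26) and pulse (9.24) and lowest in the day 3 pulse (8.75), Id4 ran from 8.55 in the day 3 pulse to 8.10 at day 1, and Smad6 from 7.76 at day 0 to 7.22 in the day 3 control.

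Over the 10 group means, Id2 and Bmpr1a followed each other most closely among the 7 (Pearson r = 0.959), while Id2 and Id3 showed r = -0.036. Id1 correlated with Id2 at 0.615 and with Id3 at 0.580, and Id4 ran against Id1 (-0.706) and Id3 (-0.714). Bmp4 and Smad6 each had r = 0.634 with Id3. These are descriptions over 10 means from the same 30 arrays.

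Among 21411 candidate clusters, the 3 with the pattern most like each gene were named by the same measure. For Id2 they were Eloa (0.983), Zmiz1 (0.982) and Lrrc41 (0.980), and for Bmpr1a Prkcz (0.994), Itgb5 (0.992) and Pigc (0.992). Bmp4 was closest to Pgrmc1 (0.972), Bag2 (0.925) and Gss (0.919), and Smad6 to F930015N05Rik (0.976), Lmx1b (0.963) and Tbx2 (0.963). Id3 was closest to Klk1b24 (0.953), Neurl1b (0.950) and Nmb (0.948), Id1 to Ippk (0.920), Spef2 (0.917) and Zfp251 (0.912), and Id4 to Wipf3 (0.868), Pakap (0.839) and Vegfb (0.831). The highest values among so many candidates are large by selection.

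**Figure D5:**
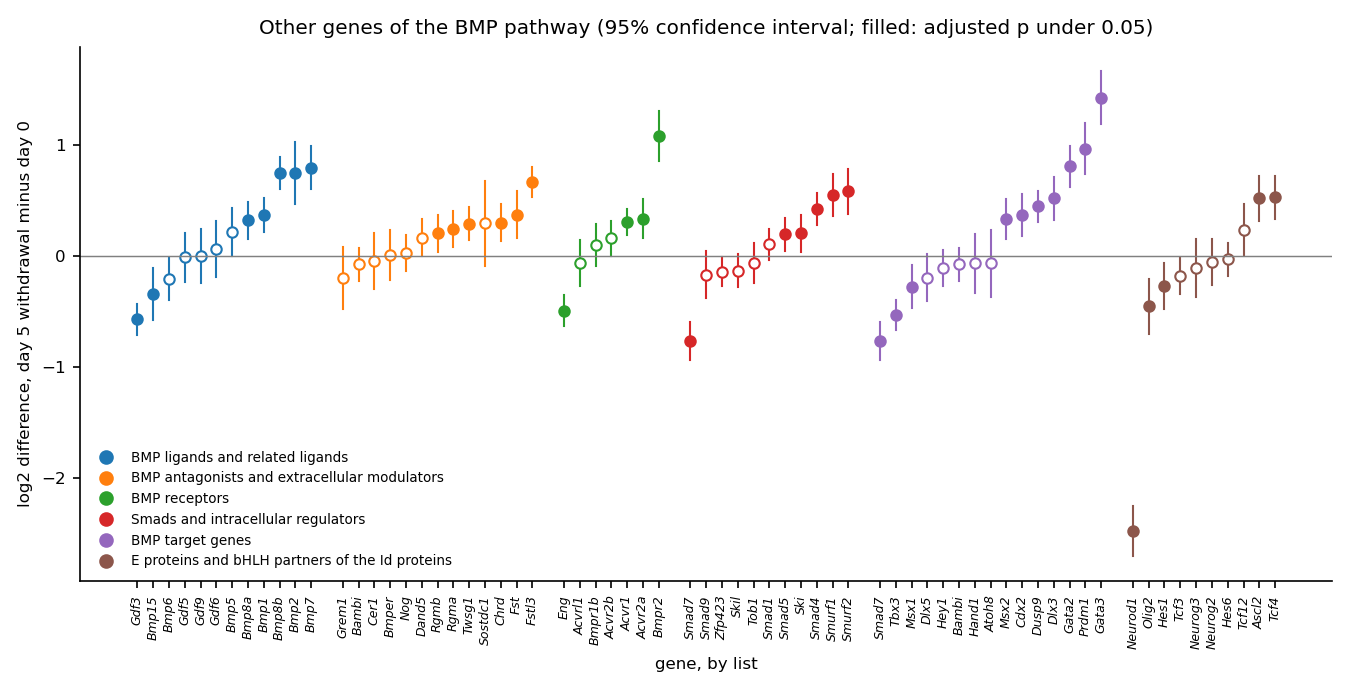
Difference between day 5 withdrawal and day 0 (y axis, log2, with 95% confidence interval) for each measured gene of 6 pathway lists (x axis), filled where the adjusted p was under 0.05. The receptor Bmpr2 stood at 1.08, the target Gata3 at 1.42 and the bHLH factor Neurod1 at -2.48.

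Some other ligands of the family were higher at day 5, when Bmp4 was below day 0. The list of 12 ligands and related genes holds Bmp1, which is a secreted protease and not a ligand. None of the 12 was called at day 1, 3 were higher at day 3, and 5 were higher and 2 lower at day 5. Of all clusters, 23.8% were higher and 18.8% lower at day 5. At day 1, 3.49% of all clusters were higher and 3.02% lower, and at day 3, 19.6% and 14.3%. The counts of each list below stand beside these same shares. The day 5 rises were led by Bmp7 (0.79 ± 0.093, adjusted p = 7.12e-08), Bmp2 (0.75) and Bmp8b (0.75), all BMP ligands. The Bmp2 signal was low throughout, at 5.45 at day 0 and 6.20 at day 5 (percentiles 11.1 and 21.1 of the tested clusters). Gdf3, a ligand of pluripotent cells, fell by 0.57 at day 5 (adjusted p = 9.68e-08). The median change of the list at day 5 was 0.14 against -0.01 over all tested clusters.

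Of 13 measured antagonists and extracellular modulators, 1 was lower at day 1 (Twsg1, a modulator that binds BMPs, fell by 0.43), 3 were higher at day 3, and 6 were higher and none lower at day 5. Fstl3, which binds activins and some BMPs, rose by 0.66 ± 0.066 at day 5 (adjusted p = 4.14e-09), follistatin (Fst) by 0.37, chordin (Chrd) by 0.30 and Twsg1 by 0.29. The other two calls, of Rgma and Rgmb, were kept in 12 of 16 and 6 of 16 alternatives. The day 5 median of the list was 0.20.

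Among 7 other receptors, Bmpr2, the type II receptor for BMPs, rose by 0.71 at day 3 and by 1.08 ± 0.11 at day 5 (adjusted p = 7.53e-09). The type II receptor Acvr2a rose by 0.33 and the type I receptor Acvr1 by 0.31 at day 5, and the co-receptor endoglin (Eng) fell by 0.50. In counts, 1 was higher and 1 lower at day 1, 5 and 1 at day 3, and 3 and 1 at day 5, with a median of 0.16 at day 5. Bmpr1b, another BMP type I receptor, rose by 0.50 at day 1 (adjusted p = 0.000613) from a low signal (5.45 at day 0). Its mean at day 5 was 5.54. Acvr2b was lower by 0.34 after the day 1 pulse (adjusted p = 0.0109), a call that was lost in 3 of 16 alternatives.

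Of 11 Smads and intracellular regulators, 1 was higher and 2 lower at day 1, 4 and 1 at day 3, and 5 and 1 at day 5, with a median of 0.10 at day 5. Smad7, an inhibitory Smad like Smad6, fell by 0.38 at day 1 and by 0.77 ± 0.083 at day 5 (adjusted p = 1.98e-08). Smad4, the common partner, rose by 0.42 at day 5, and the ubiquitin ligases Smurf2 and Smurf1, which target Smads and receptors, by 0.58 and 0.55. Skil, a repressor of Smad-driven transcription, rose by 0.75 at day 1 (adjusted p = 9.1e-08). Its mean at day 5 was 9.72 against 9.85 at day 0.

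After the day 1 pulse, Ski, Smurf1 and Skil were lower, by 0.35, 0.34 and 0.31 on the log2 scale (adjusted p = 0.0137, 0.0343 and 0.0115), and no gene of the list was higher. Of all clusters, 3.2% were lower and 0.547% higher after this pulse. In a fit of only the compared groups none of these 3 calls was kept. Without single arrays, the Ski call was lost 3 times, that of Smurf1 4 times and that of Skil 2 times.

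Of 15 BMP target genes listed, 2 of which (Bambi and Smad7) are also in the lists above, 1 was higher and 2 lower at day 1, 4 and 3 at day 3, and 7 and 3 at day 5. The list median at day 5 was -0.07. Gata3 and Gata2, transcription factors of trophoblast among other tissues, rose at day 5 by 1.42 ± 0.11 (adjusted p = 1.08e-10) and 0.80. Prdm1, a transcriptional repressor needed for germ cell specification, rose by 0.48 at day 1, 1.23 at day 3 and 0.96 at day 5. After the day 1 pulse Prdm1 was lower by 0.53 (adjusted p = 0.00698) and Dusp9, an ERK phosphatase, by 0.26 (adjusted p = 0.0279), and both calls were lost in a fit of only the compared groups. The target Tbx3, also a pluripotency factor, fell by 0.52 at day 1 and by 0.53 at day 5.

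Among 10 measured E proteins and bHLH factors, with which the Id proteins act, the largest change was in Neurod1, a neuronal bHLH factor. It fell by 0.55 at day 1 and fell by 2.48 ± 0.11 at day 5 (adjusted p = 1.08e-15). The E protein Tcf4 rose by 0.52 at day 5, Ascl2, a bHLH factor of trophoblast, by 0.52, and Olig2 fell by 0.45. In counts, 1 was higher and 1 lower at day 1, 2 and 1 at day 3, and 2 and 3 at day 5, with a median of -0.08. Hes6 rose by 0.62 at day 1 and was lower by 0.51 after the day 1 pulse (adjusted p = 0.00015).

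The average of the 3 pulses gave 1 higher and 4 lower receptors of 7, where 6.8% of all clusters were higher and 14% lower. The other counts of this paragraph stand beside the same shares. Acvr2b, Bmpr2, Acvr2a and Eng were lower by 0.19, 0.19, 0.14 and 0.12 on the log2 scale, and Acvrl1 was higher by 0.16. With array interquartile range as a covariate none of these 5 was called, and Acvrl1 was then at -0.0031. Targets had none higher and 3 lower of 15, led by Prdm1 (0.39 lower, adjusted p = 0.0003). Smads and regulators had 1 higher and 3 lower of 11, and ligands and related genes none higher and 1 lower of 12. Antagonists had 1 higher and none lower of 13, and E proteins and bHLH factors none higher and 2 lower of 10.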

How the data were processed

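Total RNA from 30 samples of clone NgR was measured on Mouse Gene 1.0 ST arrays of Affymetrix. The authors' deposited values are log2 signals per transcript cluster, and the submitters' processing notes name RMA and Affymetrix Expression Console. RMA equalizes the arrays' distributions, which can hide a global change. Software versions and the genome build are not given in the sources used here. Clusters were named through the platform table, and the 23385 of 28815 with a symbol were tested.

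One model of the 10 group means, without covariates, was fitted to the 30 arrays (limma 3.58.1, R 4.3.3, 20 residual degrees of freedom). P-values were adjusted by Benjamini-Hochberg over the 23385 clusters within a comparison, and called under 0.05. Confidence intervals are at 95%. Arrays have no read depth, and 3 per group limit the precision. No 2 replicates held identical values. The code was tested on simulated data.

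The 7 genes and the gene lists were chosen with earlier results of these data known. Up to 4 called genes with the largest change were eligible to be named per list and comparison, with all 7 genes in each, and the 3 most alike clusters for each of the 7, microRNAs, small nucleolar RNAs and Usp17l genes left out. Listed genes without a cluster of their own were not analysed here. Alternatives were trend and robust moderation, array weights, only the compared groups, median centring, quantile normalization, removal of the lowest 40 percent by mean signal, addition of clusters that have no symbol, the replicate number as a block, the interquartile range as a covariate, and arrays left out.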

Additional observations from a re-analysis of the deposited data

How the results depend on the processing

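No called value of the 7 genes changed direction in 1113 values under other settings or in 1050 with 1 array left out. Of these, 16 and 33 lost their call and 44 and 11 gained one. All 7 genes kept their difference among the 10 groups in 39 of 39 alternatives each, and with 1 array left out the count was 7 to 7. Of 156 calls of pathway genes, 89 held under every alternative and 1 reversed, Acvrl1 in the average of the pulses (-0.0031 with the interquartile range as a covariate).

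The counts of genes called among the 7 that moved by more than 1.5 times, or from 0, are given here, and the cause was not tested except that a fit of only the compared groups has fewer arrays. Array weights gave 5 for the average of the pulses (from 3), 4 for the day 1 pulse (from 2), 5 for day 5 against day 3 (from 3), 2 for the day 5 control (from 1), and 1, 1, 1, 2, 3 and 2 (each from 0) for the day 3 control, the day 3 pulse, the day 5 pulse and the differences day 3 minus 1, day 5 minus 1 and day 5 minus 3. Only the compared groups gave 1 for day 1 withdrawal (from 2), 1 for the day 1 pulse, 0 for the day 1 control (from 2) and 0 for the day 5 control. The interquartile range as a covariate and quantile normalization each gave 1 for the average of the pulses, 1 for the day 3 control and 1 for the day 5 minus day 1 difference. Without the 4 widest arrays the average of the pulses gave 1. Leaving out the lowest 40 percent gave 1 for the day 3 control and 2 for the day 5 control, and trend and robust moderation gave 2 for the latter.

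Smaller moves were not listed above: for example, day 3 against day 1 gave 7 (from 5) with array weights and with quantile normalization, the day 1 pulse 3 (from 2) with quantile normalization and without the 4 widest arrays, and day 3 against day 0 gave 4 with arrays centred and 6 with array weights or without the 4 widest (from 5).

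With 1 array left out, the counts ran from 1 to 2 for day 1, 3 to 6 for day 3 and 5 to 5 for day 5 against day 0. They ran from 2 to 5 for day 3 against day 1, 3 to 3 for day 5 against day 3, 2 to 3 for the day 1 pulse, 2 to 4 for the average, 0 to 2 for the day 1 control, 0 to 2 for the day 5 control and 0 to 1 for the day 5 minus day 1 difference, and stayed at 0 for the rest.

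Replicate numbers did not pair the samples. Same-numbered arrays correlated in their deviations at a mean of -0.015, and 36 of 135 pairs were over 0.1. With the replicate number as a block, each count was within 1.5 times that without it, and Smad6 in the average of the pulses was called (0.17, adjusted p = 0.0412).

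The share of all clusters called depended on the setting, from 0.316% to 19.6% for the day 1 pulse, 0% to 47.7% for the day 5 pulse and 2.12% to 47.6% for the average. Each gene had 1 cluster, so no alternative cluster could be tried.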
